A study of Mus musculus with 9 samples.

Results

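The collagen chain genes are the genes whose symbol is Col, a number, the letter a and a number, each of which codes for 1 polypeptide chain of a collagen. The deposited table held 44 of them among 23420 genes, and 29 of the 44 reached a value of 10 in 3 or more libraries and so entered a test over 11889 genes. They were described in 9 RNA-seq libraries of primary ankle cells of C57BL/6 mice at passage 1, 3 from each of 3 cell groups. ADSF were synovial fibroblasts of ankles with collagen antibody-induced arthritis (CAIA), a model in which antibodies against type II collagen and then lipopolysaccharide are injected. NDSF were synovial fibroblasts of normal ankles without this treatment, and ADSM were synovial macrophages of CAIA ankles. The sources used here give no age. ADSF and NDSF are the cells that attached to a dish coated with type I collagen, whereas ADSM did not attach, grew on an uncoated dish and were freed of stromal cells with trypsin. The cells of both dishes came from tissue digested with collagenase. The paper describes the cells of a group as taken from independent ankles in independent experiments. No source used here names the ankle or the animal behind each library, so ankles of 1 animal may be among them.

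Collagens are the main structural proteins of the extracellular matrix. Their chains wind around each other in threes, which is possible because glycine takes the first place in each triplet of residues of the helical part. Type I collagen, from the chains coded by Col1a1 and Col1a2, and type III collagen, from Col3a1, form the fibrils of most connective tissues, and type V and XI chains sit inside fibrils and limit their width. Type IV collagens form the mesh of basement membranes, type VI collagen forms beaded filaments around cells, type VII collagen anchors basement membranes, and fibril-associated collagens such as types XII and XIV lie on the surface of fibrils. In a joint, type II collagen, from Col2a1, is the fibrillar collagen of cartilage. Synovial fibroblasts make much of the matrix of the synovial lining.

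The repeat that defines these genes can be read in their exons. In the mm10 gene models of the table, 23.1% of the 2026 exons of the 44 genes and 47.1% of the 647 exons of the 11 fibrillar genes were 54 bases long, against 0.549% of the 215361 exons of all genes. The share of exons whose length is a multiple of 9 bases was 60.5% for the 44 genes, 81.3% for the fibrillar genes and 13.6% for all genes. A 54-base exon codes for 18 residues, and the first such exon that begins with glycine and keeps it at the start of each triplet of codons is shown for a type I, a type V and a type IV chain. Sequences come from the GENCODE transcripts of this build, and glycine codons are in capitals. The Col1a2 exon is exon 8 of 52 at chr6:4515481-4515534 on the plus strand, the Col5a1 exon is exon 15 of 66 at chr2:27965251-27965304 on the plus strand, and the Col4a1 exon is exon 7 of 52 at chr8:11245211-11245264 on the minus strand.
Col1a2: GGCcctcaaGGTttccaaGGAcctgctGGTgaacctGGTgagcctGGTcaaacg
Col5a1: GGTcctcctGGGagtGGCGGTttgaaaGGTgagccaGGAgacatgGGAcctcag
Col4a1: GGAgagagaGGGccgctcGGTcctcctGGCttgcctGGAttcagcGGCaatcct
The Col5a1 exon holds 7 glycine codons and the others hold 6. In the longest coding sequence of each gene, the longest unbroken run of such triplets was 1017 codons in Col1a2 and 1014 codons in Col5a1, but 120 codons in Col4a1. It was 96 codons in Col12a1, whose coding sequence of 3065 codons consists mostly of other domains.

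The 44 genes lie on 15 chromosomes, and 3 type IV pairs start head to head. Col4a1 and Col4a2 are 3 bases apart on chromosome 8, Col4a3 and Col4a4 are 72 bases apart on chromosome 1, and Col4a5 and Col4a6 are 1343 bases apart on chromosome X. The start regions of 2 of these pairs are shown because their members were at like levels in the first pair and far apart in the second. They are from RefSeq (GRCm38.p6, the same build as mm10), read 5′ to 3′, with each match to the letters GGGCGG, known as a GC box, and to the letters CCAAT in capitals, on either strand. The windows of Col4a1 and Col4a2, each from 250 bases before to 50 bases after the start, share the 78 bases of chr8:11312777-11312854, given on the plus strand. The 250 bases before the start are given for Col4a5 (chrX:141475169-141475418, plus strand) and for Col4a6 (chrX:141474077-141474326, minus strand).
Col4a1 and Col4a2, shared: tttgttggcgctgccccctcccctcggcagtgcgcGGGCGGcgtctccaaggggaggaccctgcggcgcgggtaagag
Col4a5: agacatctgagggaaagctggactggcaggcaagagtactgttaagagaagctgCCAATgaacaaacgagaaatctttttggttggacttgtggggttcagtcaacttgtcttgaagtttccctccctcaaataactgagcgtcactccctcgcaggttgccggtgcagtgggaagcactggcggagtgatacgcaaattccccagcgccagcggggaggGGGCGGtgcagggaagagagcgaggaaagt
Col4a6: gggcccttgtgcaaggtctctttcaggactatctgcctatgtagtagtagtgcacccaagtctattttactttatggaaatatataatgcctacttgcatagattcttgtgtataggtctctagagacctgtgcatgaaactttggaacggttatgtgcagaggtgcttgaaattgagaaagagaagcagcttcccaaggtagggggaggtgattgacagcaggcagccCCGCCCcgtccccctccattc
RefSeq windows were matched for 35 of the 44 genes. None was matched for Col1a1, Col2a1, Col4a3, Col5a2, Col9a3, Col12a1, Col14a1, Col22a1 and Col26a1, some of which are among the most abundant chains. GGGCGG occurred in 60.5% of the 38 windows of the matched genes, against 35.7% of all 32851 windows of the same length. CCAAT occurred in 34.2% of the collagen windows and in 37.4% of all windows, and the letters TATAAA, a core promoter motif, in 13.2% of the collagen windows and in 13.6% of all windows. These matches are a description of the letters and not of bound sites.

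Each library held 2380483 to 3351184 reads on genes, and 1 read was worth 0.854 to 1.24 units of the TMM value, the read count divided by 1 scaling factor per library. NDSF library 3 stood apart from the other NDSF libraries: the chi-square per degree of freedom of its counts was 21.0 and 16.5 against NDSF libraries 1 and 2, but 1.71 between those libraries, 4.64 to 6.50 within ADSF and 2.34 to 6.06 within ADSM. Among the 29 tested collagen genes it was below both other NDSF libraries for 21, above both for 7 and between them for 1. For the chains and sums of which leaving it out changed the call or moved the difference by over 1.5 times, most values are also given without it. The summed value of 9 fibroblast markers was 6166 to 7472 in ADSF, 8648 to 18730 in NDSF and 6.23 to 24.3 in ADSM, and that of 7 macrophage markers was 804 to 1535 in ADSF, 821 to 1976 in NDSF and 35370 to 38240 in ADSM. Single fibroblast markers went different ways between ADSF and NDSF, with means of 449 and 4847 for Dcn, 1931 and 1902 for Pdgfrb, and 618 and 439 for Pdpn. The paper gives the mice as female. Xist, which marks cells with an inactive X chromosome, was at 1872 to 2891 in the fibroblast libraries and 0 to 3.42 in ADSM, and Ddx3y of the Y chromosome was at 0 in the fibroblast libraries and 94.8 to 143 in ADSM. ADSM thus differed from the fibroblasts in sex-linked RNA as well as in cell type, dish and time in culture, and these cannot be told apart.

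Collagen chains took several percent of each fibroblast library. Their share of the summed TMM value was 5.31%, 5.14% and 5.42% in the ADSF libraries, 6.93%, 7.03% and 5.14% in the NDSF libraries, and 0.0162%, 0.0173% and 0.0176% in the ADSM libraries. Both fibroblast groups lay far above ADSM. They overlapped each other only through NDSF library 3, and the other NDSF libraries were above all 3 ADSF libraries. The share differed by 5.27 percentage points between ADSF and ADSM and by 6.35 points between NDSF and ADSM, each with p = 0.1 in a two-sided exact permutation test, the smallest p that 3 against 3 libraries allow. In bulk RNA, a smaller number of collagen-making cells and less collagen RNA per cell cannot be told apart.

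A comparison of levels between genes needs values per kilobase of exon. On that scale Col1a1 was first and Col1a2 second among the 44 genes in both fibroblast groups, at 7380 ± 418 and 6358 ± 415 per kilobase in ADSF and 11202 ± 2026 and 9496 ± 2270 in NDSF (SD, n = 3). Col5a2, a type V chain, and Col3a1 came next in both groups. Col5a2 was at 3578 ± 257 per kilobase and Col3a1 at 3379 ± 474 in ADSF, closer together than their spread. In NDSF they were at 2994 ± 66.2 and 5247 ± 1387, further apart than 1 SD of either. Col6a1, Col5a1, Col6a2, Col12a1 and Col6a3 made up the places from 5 to 9 in both groups, between 741 and 1846 per kilobase in ADSF and between 609 and 1773 in NDSF. The mean TMM value was at least 10 for 27 of the 44 genes in ADSF, 29 in NDSF and 9 in ADSM.

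**Figure D1:**
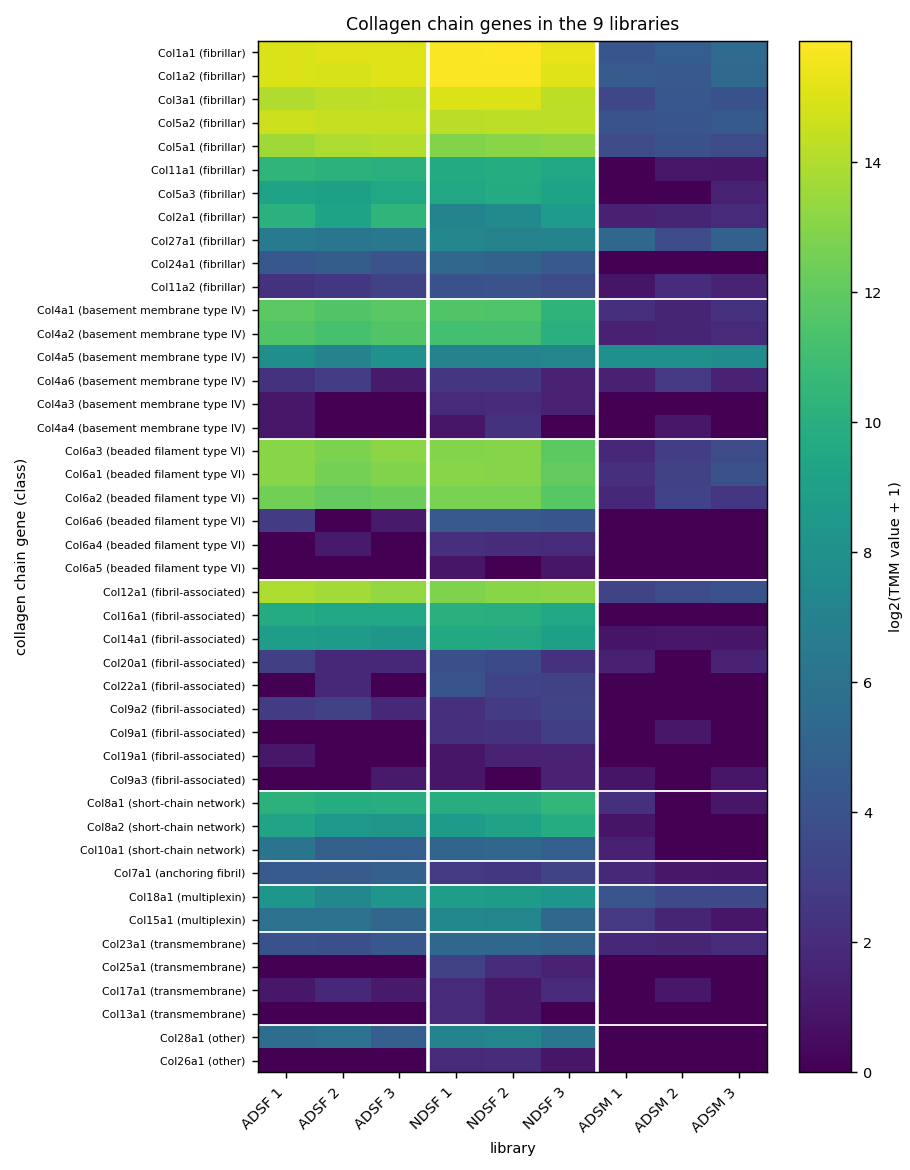
Each row is 1 of the 44 collagen chain genes, grouped by class, each column is 1 library, and the colour is log2(TMM value + 1). The ADSF and NDSF columns are bright for types I, III, V, VI and XII, while in the ADSM columns Col4a5 is the brightest row.

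Nearly every tested collagen gene was higher in the fibroblasts of CAIA ankles than in the macrophages of CAIA ankles. Between ADSF and ADSM, 27 of the 29 were higher and 0 were lower by limma on log2(value + 1) at an adjusted p under 0.05, with Benjamini-Hochberg adjustment over all 11889 genes, of which 41.0% were higher and 30.1% lower. At an unadjusted p under 0.05, 28 were higher and 0 lower, and edgeR and DESeq2 also called 0 lower. Between NDSF and ADSM, 28 were higher and 1 was lower, against a background of 43.3% higher and 32.0% lower. The median log2 fold change of the 29 was 8.73 for ADSF and 9.00 for NDSF against ADSM, and that of all genes was 0.14 and 0.18. Of the 29, 4 had no read in ADSM, and with these at the bound that 3 reads allow, both medians were the same. Most of these genes passed the filter on low values only through the fibroblast libraries, so they had to differ from ADSM, and the counts are a description. The 2 comparisons share the ADSM libraries.

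The most abundant chains had less than 0.2% of their fibroblast level in ADSM. Col1a1 had values of 32407, 35861 and 35748 in ADSF and 17.9, 25.9 and 46.7 in ADSM. The groups were far from overlapping, with a log2 fold change of 10.22 ± 0.27 (SE) and an adjusted p of 1.84e-10 by limma. Col3a1 had values of 15806, 19807 and 20789 in ADSF, against 9.40, 18.7 and 15.0 in ADSM. This was 10.30 ± 0.25 on the log2 scale, with an adjusted p of 8.83e-11 by limma. Col16a1, a fibril-associated chain, had no read in any ADSM library, and with 3 reads over the 3 ADSM libraries taken as the limit its ADSF mean was at least 806-fold higher. Of the 27 members with an ADSF mean of at least 10, 18 had an ADSM mean under 0.2% of it and 20 under 1%, with a median of 0.0916%. Of the 9 fibroblast markers, measured in the same way, 6 were under 0.2% and 8 under 1%, with a median of 0.136%. Col1a1 at 0.0871%, Col5a1 at 0.0833%, Col4a1 at 0.0879% and Col6a3 at 0.0831% lay close to each other. Col2a1 was at 0.215%, Col14a1 at 0.235% and Col16a1 at 0. The markers were spread, from 0 for Pdgfra, 0.0952% for Thy1 and 0.373% for Pdgfrb to 2.16% for Fap. Whether fibroblasts left in the ADSM cultures have a part in these low collagen values was not tested.

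**Figure D2:**
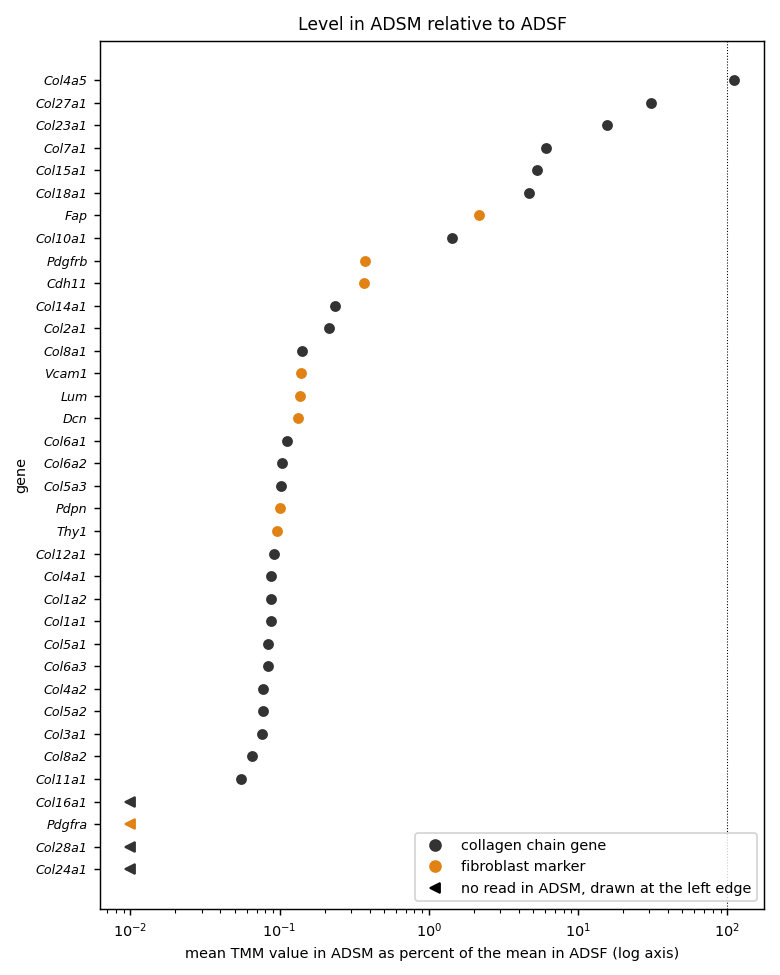
The x axis, on a log scale, is the mean TMM value in ADSM as a percent of the mean in ADSF, for the 27 collagen chain genes (dark) and 9 fibroblast markers (orange) with an ADSF mean of at least 10. Most collagen genes and most markers lie under 0.2%. To the right lie Col4a5 (111%), Col27a1 (30.9%), Col23a1 (15.6%), Col7a1 (6.12%), Col15a1 (5.27%), Col18a1 (4.69%) and Col10a1 (1.42%). The ADSM values of Col23a1, Col7a1, Col15a1 and Col10a1 rest on 8, 5, 9 and 2 reads over the ADSM libraries, against 756 for Col4a5.

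One collagen chain was as high in the macrophages as in the fibroblasts. Col4a5, which codes for the alpha-5 chain of type IV collagen, a basement membrane chain known for its loss in Alport syndrome in humans, had values of 235, 137 and 266 in ADSF, 137, 143 and 154 in NDSF, and 246, 251 and 211 in ADSM. ADSF overlapped ADSM, and all 3 NDSF libraries were below all 3 ADSM libraries. The log2 fold change against ADSM was -0.20 ± 0.21 (adjusted p = 0.404) for ADSF and -0.70 ± 0.21 (adjusted p = 0.0106) for NDSF by limma. Per kilobase, Col4a5 was the first of the 44 chains in ADSM at 36.4 ± 3.35, ahead of Col1a1 at 6.43 ± 3.16, whereas it ranked 20th in ADSF and 22nd in NDSF. The FPKM values from Cufflinks, deposited for ADSF and ADSM, gave 11.8 ± 3.76 in ADSF and 12.8 ± 1.18 in ADSM (SD, n = 3), so both tables place the groups within their spread. Its head-to-head neighbour Col4a6 did not share this level. Col4a6 had 3.97, 6.22 and 1.20 in ADSF, 4.60, 4.99 and 1.88 in NDSF, and 1.71, 5.19 and 1.87 in ADSM, with 9 to 12 reads per group, and all 3 groups overlapped. The Col4a3 and Col4a4 chains, which join alpha-5 in the basement membranes of kidney and lung, had 1 read each over the 3 ADSF libraries, 8 and 5 reads in NDSF, and 0 and 1 read in ADSM.

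Col4a5 was the largest single entry in the small collagen pool of ADSM. Type IV chains were 4.20%, 3.41% and 3.97% of the summed collagen value in ADSF, 2.50%, 2.44% and 1.61% in NDSF, and 59.6%, 61.0% and 48.2% in ADSM. Fibrillar chains were 71.5 to 76.8% in ADSF, 81.3 to 82.7% in NDSF and 26.9 to 37.7% in ADSM. The type IV reads of ADSM were 756 of Col4a5, against 10 of Col4a1, 7 of Col4a2 and 9 of Col4a6 over the 3 libraries.

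**Figure D3:**
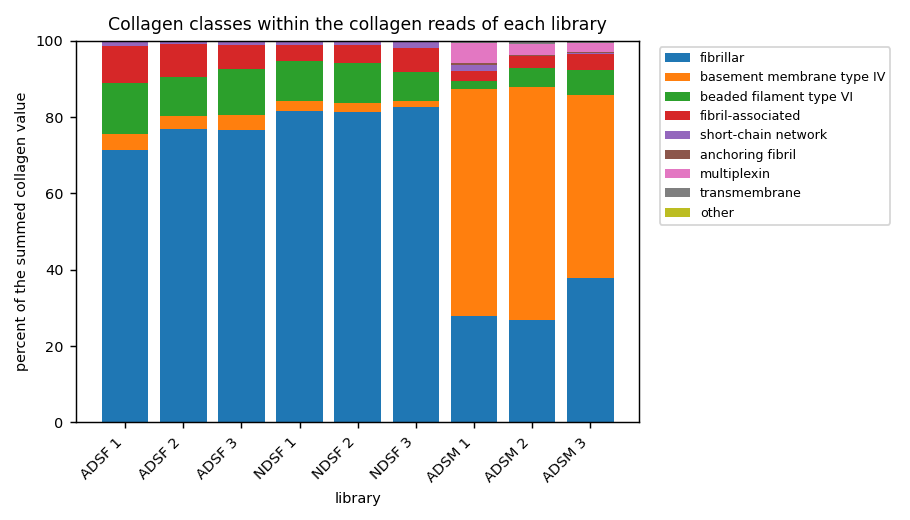
Stacked bars give, for each library on the x axis, the percent of the summed collagen TMM value held by each class of collagen chains. Fibrillar chains hold 71.5 to 82.7% in the fibroblast libraries, and type IV chains hold 48.2 to 61.0% in ADSM.

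A few other chains were also less depleted in ADSM than the abundant ones. Col27a1, a fibrillar chain that is found in cartilage, had 97.3, 74.7 and 80.5 in ADSF, 159, 139 and 134 in NDSF, and 38.4, 11.4 and 28.0 in ADSM. The groups did not overlap, and ADSM library 2 was the lowest, with a log2 fold change of ADSF over ADSM of 1.80 ± 0.34 and an adjusted p of 0.000703 by limma. Col18a1, the source of the fragment endostatin, had 326, 168 and 311 in ADSF, 450, 434 and 323 in NDSF, and 17.1, 10.4 and 10.3 in ADSM. Col6a6, a type VI chain, was the other gene not past the threshold between ADSF and ADSM, at 1.31 ± 0.58 and an adjusted p of 0.0613 by limma, with 7 reads over the ADSF libraries and 0 over the ADSM libraries. The call changes with the setting: edgeR, DESeq2, a pseudocount of 0.5 and the fit without ADSF library 2 each called it higher.

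Between the fibroblasts of CAIA and of normal ankles, the collagen genes moved in both directions. Col2a1, Col5a1, Col7a1 and Col12a1 were higher in ADSF, and Col6a6, Col11a2, Col14a1, Col23a1 and Col28a1 were lower, by limma at an adjusted p under 0.05, while 20 of the 29 did not pass. Over all 11889 genes, 9.88% were higher and 11.3% lower, so that the share of collagen genes called, 9 of 29, stood against 21.2% of all genes in either direction. At an unadjusted p under 0.05, 6 were higher and 8 lower. The median log2 fold change of the 29 was -0.27, against -0.01 for all genes. The groups did not overlap for 8 higher and 8 lower members, against 18.4% and 19.7% of all genes, or 38.1% in either direction. The paper names another library kit for NDSF than for ADSF, while the labels name 1 kit for all libraries, so kit and state of the ankle cannot be told apart. Markers of some other ankle cells stood at other levels as well. The summed value of 7 skeletal muscle markers was 49.8 to 90.2 in ADSF and 709 to 1937 in NDSF, and that of 7 endothelial markers was 51.7 to 62.5 in ADSF and 146 to 425 in NDSF. The sum of 8 osteoblast markers was 230 to 348 in ADSF and 579 to 611 in NDSF, with means of 59.0 and 203 for Alpl but 183 and 188 for Runx2. The sum of 5 tenocyte markers overlapped, at 6279 to 26140 in ADSF and 9811 to 20860 in NDSF. That of 7 mural cell (pericyte and smooth muscle) markers overlapped too, at 624 to 704 in ADSF and 669 to 963 in NDSF. The sum of 7 chondrocyte markers overlapped, at 2756 to 5317 in ADSF and 5067 to 9207 in NDSF, with Matn1 at 0 in both and Comp holding most of the sum. The part of these cells in the collagen differences was not tested.

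**Figure D4:**
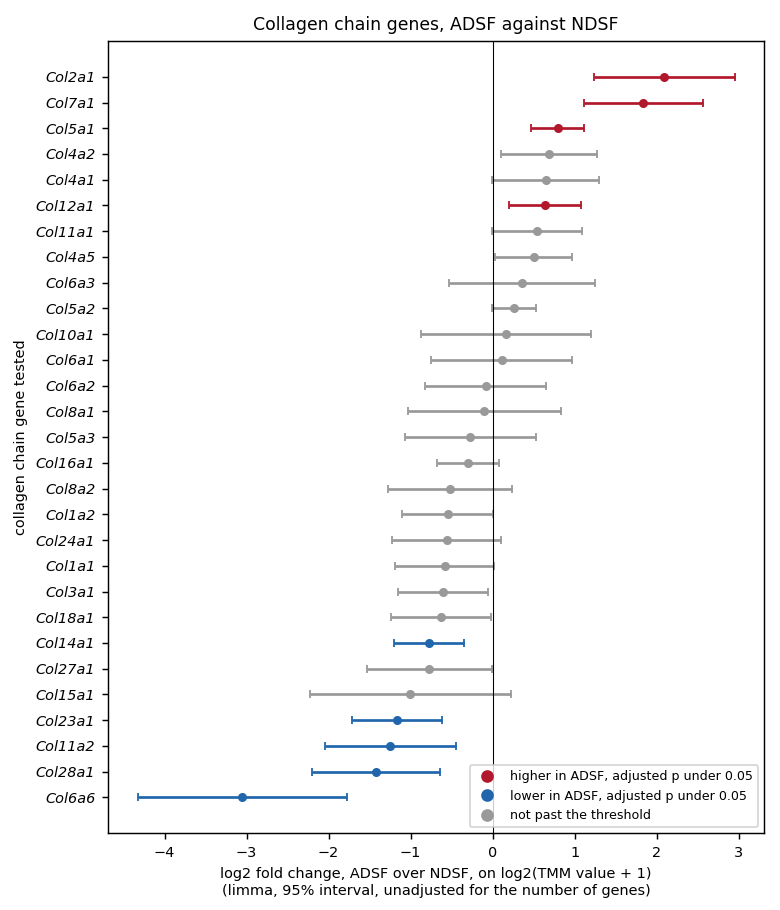
Points are log2 fold changes of ADSF over NDSF for the 29 tested collagen chain genes, ordered by size, with 95% intervals from limma. The 4 genes in red and the 5 in blue passed an adjusted p under 0.05, and the intervals of the type VI chains Col6a1, Col6a2 and Col6a3 span 0.

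Type II collagen had the largest rise. Col2a1 had values of 1126, 584 and 1356 in ADSF, against 144, 191 and 412 in NDSF. Every ADSF library was above every NDSF library, and NDSF library 3 was the highest of its group. The log2 fold change was 2.09 ± 0.39 (adjusted p = 0.00560 by limma), and without NDSF library 3 it was 2.53. Of the other cartilage genes on the marker list, Comp, a matrix protein also made by tendon, had values of 5148, 2629 and 2765 in ADSF, against 9024, 8858 and 4883 in NDSF, so that the groups overlapped. Sox9, a transcription factor of chondrocytes, overlapped at 128, 93.3 and 99.8 in ADSF and 104, 92.9 and 120 in NDSF. Acan, the cartilage proteoglycan, had 15.9, 19.9 and 33.7 in ADSF and 11.0, 28.0 and 28.2 in NDSF, again with overlap, as did the cartilage matrix genes Matn3 and Hapln1. Chad, which codes for the cartilage matrix protein chondroadherin, did not overlap and was lower in ADSF, at 0.99, 1.24 and 2.40, against 49.7, 52.9 and 11.3 in NDSF.

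Col5a1, the alpha-1 chain of the fibril-limiting type V collagen, had 12275, 15142 and 16832 in ADSF, against 7603, 8320 and 9452 in NDSF. The groups did not overlap, and the difference of 0.80 ± 0.15 on the log2 scale had an adjusted p of 0.00539 by limma. Col7a1, which codes for the anchoring fibril collagen, had 22.8, 23.6 and 27.6 in ADSF and 5.52, 4.99 and 8.45 in NDSF. Its log2 fold change was 1.84 ± 0.33 with an adjusted p of 0.00483 by limma. These levels are low, 65 reads over the 3 ADSF libraries and 20 over the 3 NDSF libraries. Col2a1, Col5a1 and Col7a1 kept their calls under each alternative test that they entered, although a rule that also asks for a fold over 2 leaves out Col5a1. Col12a1, a fibril-associated chain of tendon and ligament, had 15204, 12854 and 10062 in ADSF and 6997, 8507 and 8789 in NDSF. Its difference of 0.64 ± 0.20 (adjusted p = 0.0436 by limma) was near the threshold and was lost in 9 of 20 alternatives.

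**Figure D5:**
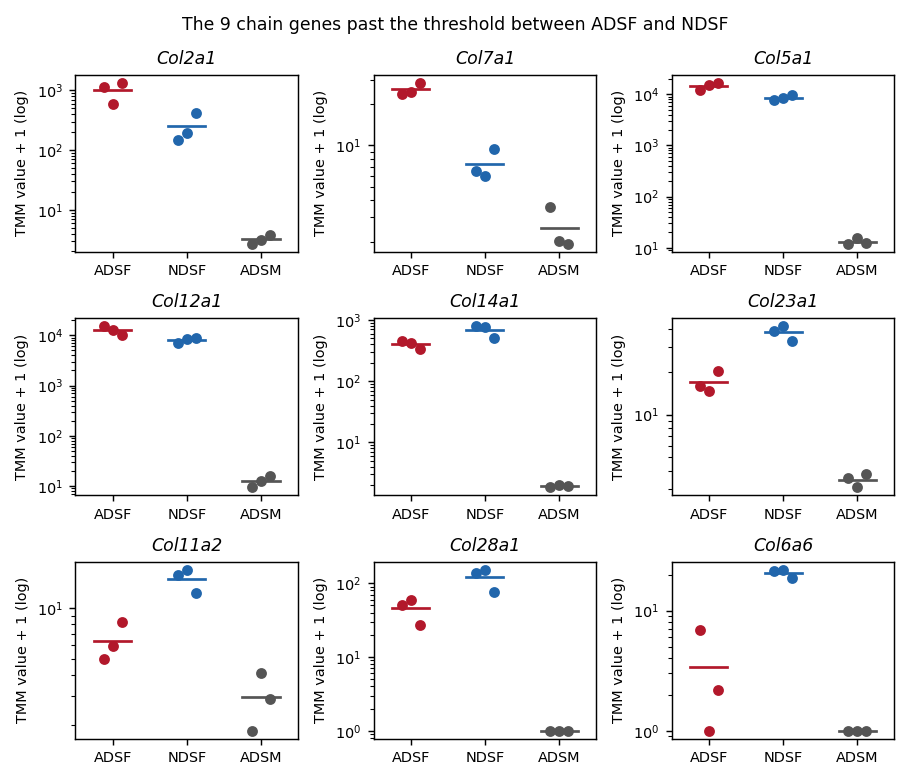
Each panel is 1 of the 9 collagen chain genes past the threshold between ADSF and NDSF, with the TMM value + 1 on a log axis, 1 point per library and a line at the group mean, for ADSF, NDSF and ADSM. In all 9 panels the ADSF points and the NDSF points do not overlap, and the ADSM points lie at or below them.

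The genes that fell were mostly of low or middle abundance. Col6a6, an additional chain of type VI collagen, had 5.96, 0 and 1.20 in ADSF, against 20.2, 21.0 and 17.8 in NDSF. The counts behind it were 7 reads over the ADSF libraries and 62 over the NDSF libraries, and the log2 fold change was -3.06 ± 0.58 (adjusted p = 0.00598 by limma). Col28a1, a chain related to type VI by its domains, had 49.6, 58.5 and 26.4 in ADSF and 137, 152 and 74.1 in NDSF, where library 3 was the lowest. It fell by 1.42 ± 0.35 on the log2 scale, with an adjusted p of 0.0189 by limma, and without NDSF library 3 the value was -1.74. Col23a1, a transmembrane chain, had 14.9, 13.7 and 19.2 in ADSF and 37.7, 41.0 and 31.9 in NDSF. It fell by 1.17 ± 0.25 on the log2 scale, with an adjusted p of 0.0102 by limma. Col11a2, a type XI chain of cartilage, had 3.97, 4.98 and 7.21 in ADSF and 14.7, 16.0 and 11.3 in NDSF, with 14 reads over ADSF and 44 over NDSF. It fell by 1.25 ± 0.36 (adjusted p = 0.0344 by limma) but the call was lost in 5 of 16 alternatives, among them DESeq2 with an adjusted p of 0.116. Col14a1, a fibril-associated chain, had 454, 413 and 335 in ADSF and 792, 771 and 515 in NDSF, and fell by 0.77 ± 0.19 on the log2 scale, with an adjusted p of 0.0191 by limma. The ADSF libraries lay below the NDSF libraries for each of these 5 genes. Without NDSF library 2, Col14a1, Col23a1 and Col28a1 lost their calls, Col23a1 with an adjusted p of 0.0573 by limma, and without NDSF library 1, Col14a1 and Col28a1 did. Col6a6 and Col11a2 could not be tested without any 1 NDSF library, since only 2 libraries then reached a value of 10. Both passed the filter only through NDSF, the group where they were high.

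The abundant chains of types I and III had lower means in ADSF, with calls that differed between settings. DESeq2 on the recovered reads called Col1a1, Col1a2 and Col3a1 lower with all libraries in, whereas limma called none of these. Col1a1 had 32407, 35861 and 35748 in ADSF, against 56145, 59884 and 41848 in NDSF. The groups did not overlap, but the log2 fold change of -0.59 ± 0.27 had an adjusted p of 0.150 by limma, and without NDSF library 3 it was -0.74 with an adjusted p of 0.0700 by limma. Col1a2 had 31995, 31008 and 35099 in ADSF and 55617, 55542 and 35362 in NDSF, and Col3a1 had 15806, 19807 and 20789 in ADSF and 33959, 33326 and 20292 in NDSF. In both genes NDSF library 3 was level with ADSF while the other NDSF libraries were well above. Their log2 fold changes were -0.55 ± 0.25 (adjusted p = 0.139 by limma) and -0.61 ± 0.25 (adjusted p = 0.108 by limma), and without that library -0.77 and -0.85, with adjusted p of 0.0286 and 0.0150 by limma. Among the fits with 1 library left out, Col1a1 passed limma's test only without ADSM library 3. The 95% intervals with all libraries were -1.10 to 0.00 for Col1a2 and -1.16 to -0.05 for Col3a1.

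The sum over Col1a1, Col1a2 and Col3a1 was 2.51%, 2.70% and 2.82% of a library in ADSF and 4.72%, 4.74% and 3.22% in NDSF. The sum over the other 41 genes was 2.80%, 2.45% and 2.59% in ADSF and 2.21%, 2.29% and 1.92% in NDSF. On these TMM values the groups did not overlap on either sum, and they lay in opposite orders. With values per kilobase of exon, the sum over Col1a1, Col1a2 and Col3a1 still did not overlap. The sum over the other 41 genes did, at 1.04%, 0.876% and 0.966% in ADSF and 0.894%, 0.911% and 0.705% in NDSF. For all 44 genes the difference of ADSF minus NDSF was -1.08 percentage points (p = 0.4, two-sided exact permutation test). Without NDSF library 3 it was -1.69 points and the groups did not overlap, with p = 0.2, the smallest that an exact permutation test of 3 against 2 gave here. For the other 41 genes the difference was 0.47 points with p = 0.1, the smallest possible in this exact permutation test, and 0.37 points without NDSF library 3. Fibrillar chains made up 71.5%, 76.8% and 76.5% of the collagen value in ADSF and 81.7%, 81.3% and 82.7% in NDSF, again without overlap.

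The type IV chains Col4a1 and Col4a2, the usual pair of basement membranes, averaged higher in ADSF. Col4a1 had 3821, 3066 and 3621 in ADSF, against 2970, 2923 and 1279 in NDSF, and Col4a2 had 3057, 2428 and 3083 in ADSF, against 2222, 2303 and 1064 in NDSF. Neither overlapped between the groups, but NDSF library 3 was less than 0.5 of the mean of its group's other libraries in both. The log2 fold changes were 0.64 ± 0.29 for Col4a1 (adjusted p = 0.139 by limma) and 0.69 ± 0.26 for Col4a2 (adjusted p = 0.0873 by limma), and without NDSF library 3 they were 0.24 and 0.33. Col6a1, a type VI chain, had 8391, 6033 and 7590 in ADSF and 8531, 8281 and 4337 in NDSF, so the groups overlapped, and its 95% interval ran over -0.75 to 0.97 on the log2 scale. Col6a2 and Col6a3 overlapped too, with log2 fold changes of -0.08 ± 0.33 and 0.36 ± 0.40. Without NDSF library 3 the 3 values were -0.21 for Col6a1, -0.40 for Col6a2 and -0.0044 for Col6a3, and none passed limma's test. Col8a1 and Col8a2, the short chains of a hexagonal network in vessels and the eye, were at -0.10 ± 0.42 and -0.52 ± 0.34, and without that library at 0.10 and -0.21. Col5a2 had 25630, 22722 and 22652 in ADSF and 19299, 20086 and 20025 in NDSF, without overlap, at 0.26 ± 0.12 (adjusted p = 0.157 by limma). Col5a3, another type V chain, had 592, 509 and 721 in ADSF and 745, 866 and 593 in NDSF, with overlap. It was at -0.27 ± 0.36 (adjusted p = 0.622 by limma), and at -0.42 without NDSF library 3. Col11a1, a type XI chain, had 1310, 1187 and 1078 in ADSF and 849, 924 and 698 in NDSF, without overlap. Its difference of 0.54 ± 0.25 had an adjusted p of 0.142 by limma, but edgeR and DESeq2 on the recovered reads both called it higher. Col15a1, a basement membrane zone chain, had 58.6, 59.7 and 36.1 in ADSF and 167, 155 and 40.4 in NDSF, and its log2 fold change of -1.01 ± 0.55 (adjusted p = 0.215 by limma) became -1.66 with 0.0141 without NDSF library 3. Col16a1, at -0.30 with all libraries, was called lower only without it, at -0.48.

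Chains of 1 molecule can be compared as ratios within a library, which need no scaling between libraries. Of 7 ratios, Col5a1 to Col5a2 was 0.479, 0.666 and 0.743 in ADSF and 0.394, 0.414 and 0.472 in NDSF, as TMM values. The groups did not overlap, with a difference of 0.54 on the log2 scale. Col6a1 to Col6a2 was 1.48, 1.42 and 1.53 in ADSF and 1.33, 1.25 and 1.28 in NDSF, also without overlap, and Col6a3 to Col6a1 did not overlap either, with a difference of 0.25. These 3 reached p = 0.1, the smallest of a two-sided exact permutation test with 3 against 3, and 0.233 after adjustment over the 7 ratios. Col1a1 to Col1a2, as TMM values, was 1.01, 1.16 and 1.02 in ADSF and 1.01, 1.08 and 1.18 in NDSF. Per kilobase of exon it was higher, between 1.11 and 1.27 in ADSF and between 1.11 and 1.30 in NDSF. Col4a1 and Col4a2 are the head-to-head pair whose shared start region is printed above. Their ratio, as TMM values, lay between 1.17 and 1.26 in ADSF and between 1.20 and 1.34 in NDSF. The groups overlapped for both of these ratios, as they did for Col8a1 to Col8a2 and Col11a1 to Col5a1.

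The 15 collagen genes under the filter were all rare, with no library above 16.6. Every one of them had a higher mean in NDSF than in ADSF, and 5 of the 44 genes, Col6a5, Col9a1, Col13a1, Col25a1 and Col26a1, had no read in ADSF, while each of the 44 had at least 2 reads in NDSF. The NDSF libraries had more genes with reads in general, 14596 to 15070 each, against 13978 to 14333 in ADSF. The share of all low genes with a higher mean in NDSF was not counted. Col22a1, a chain of the muscle and tendon junction, had 0, 2.49 and 0 in ADSF and 16.6, 7.99 and 7.51 in NDSF, without overlap. Col9a1, a chain of the cartilage collagen type IX, had 0 in all 3 ADSF libraries and 3.68, 4.0 and 6.57 in NDSF, 15 reads in all. Col25a1, a transmembrane chain with a known role in the innervation of muscle, had 0 in all 3 ADSF libraries and 7.36, 3.00 and 1.88 in NDSF, 13 reads in all. With no filter on low values limma called 11 members lower in place of 5, against 10.1% of the 16988 genes then tested, by the addition of Col4a3, Col6a4, Col9a1, Col22a1, Col25a1 and Col26a1. The muscle marker Myog was at 0, 1.24 and 0 in ADSF and 178, 150 and 70.4 in NDSF, and its part in these values was not tested. Col10a1, the collagen of hypertrophic cartilage, had 67.5, 27.4 and 25.2 in ADSF and 35.0, 36.0 and 26.3 in NDSF. It lies inside Nt5dc1, which is on the opposite strand, and since the sources do not say whether counting was stranded, its value is uncertain.

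Collagen chains are hydroxylated and folded, and those of fibrils are also cut and crosslinked. Against ADSM, 17 of the 19 tested genes of folding and modification were higher in ADSF and 1 was lower, and for NDSF these counts were 16 and 1. Over all genes, 41.0% were higher in ADSF and 43.3% in NDSF. In this list 7 of the 19 genes reached a value of 10 in no ADSM library, as did 9 of 12 for cleavage and crosslinking, 7 of 9 receptors and 5 of 7 proteases. Such genes passed the filter only through the fibroblasts and had to differ, so these counts are a description. Serpinh1, the collagen chaperone Hsp47, averaged 7724 ± 480 in ADSF and 5.06 ± 1.03 in ADSM (SD, n = 3). Tmem38b, an ion channel of the endoplasmic reticulum, was the 1 lower gene, at 52.6 ± 5.14 in ADSF and 1716 ± 511 in ADSM, and Ppib, a prolyl isomerase, was at 538 ± 56.0 in ADSF and 553 ± 20.5 in ADSM, with an adjusted p of 0.761 by limma. Each of the 12 tested genes of procollagen cleavage and crosslinking was higher in both fibroblast groups. Of the 9 receptors tested, 8 were higher in ADSF and the same number in NDSF. Lair1, an inhibitory collagen receptor of immune cells, was lower, with means of 5.81 ± 3.23 (ADSF), 10.1 ± 3.24 (NDSF) and 93.7 ± 7.40 (ADSM). Of 7 collagen-degrading proteases, 6 were higher in ADSF and 5 in NDSF than in ADSM, and 1, the lysosomal protease Ctsb, was lower in both.

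Between ADSF and NDSF these lists held changes in both directions. In folding and modification, 2 of 19 were higher and 2 lower, a share close to the 21.2% called in either direction over all genes. Plod3, a lysyl hydroxylase, averaged 1687 ± 148 in ADSF and 975 ± 23.0 in NDSF, P4ha3, a prolyl hydroxylase subunit, also rose, and Plod1 and Leprel1 fell. Leprel1, a prolyl 3-hydroxylase, averaged 9.42 ± 0.63 in ADSF and 75.6 ± 32.1 in NDSF (SD, n = 3). In cleavage and crosslinking, 3 of 12 were higher and 4 lower, against 9.88% higher and 11.3% lower over all genes. The lysyl oxidase genes, whose enzymes crosslink collagen, were split: Loxl2 averaged 1957 ± 685 in ADSF and 414 ± 99.0 in NDSF, and Loxl3 averaged 1236 ± 99.5 in ADSF and 499 ± 36.9 in NDSF, with log2 fold changes of 2.20 and 1.31 and adjusted p of 0.00109 and 0.000421 by limma. Loxl1 averaged 1079 ± 62.8 in ADSF and 1563 ± 231 in NDSF and fell by 0.52 (adjusted p = 0.0227 by limma). Tll1, a protease that cuts procollagen, rose, while Adamts2 and Adamts3, which cut its amino end, and Pcolce2, an enhancer of the cut at the carboxyl end, fell. Adamts2 averaged 559 ± 46.0 in ADSF and 944 ± 268 in NDSF. Of the 9 receptors tested, 1 was higher, 2 were lower and 6 were not called. Itga11, the alpha-11 integrin of fibroblasts, rose to 1270 ± 56.2 in ADSF, against 484 ± 90.9 in NDSF (log2 fold change 1.41, adjusted p = 0.0302 by limma), and Itga1 and Mrc1 fell. Of the 7 proteases tested, 0 were higher, 1 was lower and 6 were not called, against 21.2% of all genes called in either direction. Fap, a protease that trims collagen fragments and also a fibroblast marker, fell to 16.0 ± 9.34 in ADSF, against 162 ± 98.0 in NDSF (adjusted p = 0.00690 by limma), with library 3 at 48.8 and the other NDSF libraries at 216 and 221.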

How the data were processed

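RNA-seq signal was deposited for 3 ADSF, 3 NDSF and 3 ADSM libraries, grouped by the labels. The authors mapped reads to mm10 with TopHat. The signal deposited by the authors is the read count per gene divided by 1 TMM factor per library; the counting tool and its use of strand are not stated. Every value was a whole multiple of 1 read within 0.001 (100% of values), so reads were recovered. FPKM values, deposited by the authors from Cufflinks for ADSF and ADSM, were used only for Col4a5. Exon lengths are those of the deposited gene models. The authors' own test columns (q-values) were not used, and a second TMM table of the same 6 libraries was not used.

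Genes that reached a value of 10 in 3 or more libraries were tested by limma 3.58.1 in R 4.3.3 on log2(value + 1), with 1 mean per group and a variance trend, and p-values were adjusted over all of them by the method of Benjamini and Hochberg. Fold changes of low genes are understated on this scale. edgeR 4.0.16 and DESeq2 1.42.0 on recovered reads were alternatives only. The fit was checked on simulated data. Members, lists and markers were chosen with earlier results of these data known. Values were given for each member past the threshold between ADSF and NDSF, the 8 with the highest fibroblast mean, members lower in fibroblasts than in ADSM, and members with a tested chain partner. Other members were named after their values were seen.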

Additional observations from a re-analysis of the deposited data

How the results depend on the processing

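Against ADSM, the counts of 27 (ADSF) and 28 (NDSF) higher chains stayed within 1.5 times under all alternatives, and without 1 library they ran over 25 to 27 and 26 to 28. The 1 chain lower in NDSF became 0 when a fold over 2 was also asked. Between ADSF and NDSF, the 4 higher chains became 2 with that fold rule, and 2 to 5 without 1 library. The 5 lower chains became 11 with no filter, 2 with a minimum value of 50, 8 by DESeq2, and 0 to 7 without 1 library. Over single chains, 526 refits between ADSF and NDSF kept the side of the threshold, 22 lost a call and 17 gained one. The calls of Col14a1, Col28a1 and Col23a1 were lost in 4, 3 and 1 refits, each with a library left out, and that of Col11a2 in 5, among them DESeq2. DESeq2 also called Col1a1, Col1a2, Col3a1 and Col27a1 lower. Same-numbered ADSF and NDSF libraries deviated with correlations of 0.18, -0.14 and 0.01, and the numbers were treated as names only. As NDSF library 3 stood apart, these correlations cannot show whether same-numbered libraries share a batch. With the replicate block, 3 chains were higher (Col12a1 lost) and 5 lower, and of the lists, folding and modification had 1 higher and degrading proteases 2 lower. For the lists between ADSF and NDSF, the lowest counts without 1 library were 1 higher and 0 lower for folding. They were 1 lower for cleavage, 0 higher and 1 lower for receptors, and 1 lower for proteases. Without NDSF library 3, folding had 3 higher and 3 lower, cleavage 4 higher and 4 lower, receptors 2 higher and 3 lower, and proteases 2 lower. With only both groups fitted, cleavage had 2 lower, and proteases of NDSF against ADSM had 0 lower, as they did without ADSM library 2 (0 to 1 over the fits without 1 library). edgeR and DESeq2 gave 2 lower proteases. The collagen share difference of -1.08 points turned to 0.47 without Col1a1, Col1a2 and Col3a1, and the log2 ratio of the chains of a trimer, Col1a1 to Col1a2, differed by -0.04 with all libraries and by -0.0993 to 0.0238 with 1 library left out, positive only without NDSF library 3. The cause was not tested. Fewer libraries or genes in a fit change its power by construction. With 1 read worth 0.854 to 1.24 units, levels below 10 rest on few reads.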
